A study of Ictalurus furcatus with 16 samples.

Results

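The genes of the piRNA pathway were followed through testes of 16 male blue catfish (Ictalurus furcatus) sampled at ages 2, 4, 7 and 9, with 4 fish at each age. The labels give no unit of age, no strain and no treatment, and the series' design takes age 2 as the control. Every library is total RNA of whole testis, so fewer cells of a type and less RNA per cell cannot be told apart. The genes were chosen by symbol, with earlier results of these data known. Of the 10 named, 8 are among the 26356 symbols of the deposited count tables. Those 8 are tdrd1, tdrd5, tdrd9, tdrd15, piwil1, piwil2, asz1 and ddx4. The symbols mael and mov10l1 are not in the tables under those names and were not analysed here. Enough counts for a test were present for 6 of the 8.

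PIWI-interacting RNAs (piRNAs) are small RNAs of the animal germline that guide PIWI proteins, a branch of the Argonaute family, to transposon transcripts and silence them. PIWI proteins carry methylated arginines that are bound by Tudor domain proteins, which gather the pathway in granules called nuage or germ granules beside the nucleus and the mitochondria. In zebrafish both PIWI proteins are made in germ cells of either sex, and loss of either one costs the fish its germ cells.

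How the counts were made limits which members can be seen. The tables count fragments per transcript model, and between 22.8% and 29.4% of the fragments of a library stand in the tables' line named ambiguous. Whether fragments shared by several models of 1 gene are among them was not tested. Of 23154 protein-coding genes, those with 1 model had a median of 1363 counts summed over the 16 libraries, and 2.37% of them had fewer than 10. Among genes with 2 to 3 models the median was 39 counts and 37% had fewer than 10, with 4 to 9 models 75 counts and 34.3%, and with 10 or more models 300 counts and 22.6%. Genes with several models thus had a lower median than those with 1. Among the genes with several models the median rose, and the share under 10 counts fell, as their number grew. The helicase gene ddx4 (vasa), the classical marker of germ cells, has 10 models in the tables and held 6 counts in all, in 3 libraries. The gene of tdrd9, a Tudor domain helicase that acts in piRNA production in mouse, has 4 models and held 1 count. Both are at or near 0 in every library, so their levels cannot be read from these tables. The members with 1 model are tdrd1, tdrd5 and tdrd15. The members piwil1 and asz1 have 2 models each and piwil2 has 11, and their counts may cover only a part of the gene. Levels are compared between libraries for a gene, and not between genes.

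One library stood apart from its age and touches most results that follow. The 30 listed spermatid and sperm tail genes in the tables summed to 2185 CPM (counts scaled to the TMM-adjusted library size) in age 2 replicate 1. The sum lay between 241 and 283 CPM for the rest of age 2 and between 703 and 3761 CPM in the 12 older fish. The Sertoli cell growth factor gsdf was at 101 CPM in it, between 1934 and 6708 in the other 3, and between 95.9 and 511 at the older ages. Fold changes that passed are also given without this library. Assigned fragments numbered between 5136717 and 8081160 per library, so that 3 counts equal between 0.371 and 0.584 CPM. The 16 libraries were fitted together with edgeR, and a call means an adjusted p under 0.05 in its quasi-likelihood test over all 15979 tested genes.

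Against age 2, tdrd1, tdrd15 and asz1 fell at age 4, the same genes and tdrd5 fell at age 7, and these 4 fell and piwil1 rose at age 9. At age 4, 3 of the 6 tested members were thus lower and 0 higher, beside 12.0% of all tested genes called lower and 6.66% called higher. At age 7, 4 members were lower and 0 higher, beside 15.9% and 11.5% of all genes. At age 9, 4 were lower and 1 higher, beside 11.5% and 6.82% of all genes. The median log2 fold change of the 6 members was -0.85 at age 4, -1.17 at age 7 and -1.23 at age 9, while that of all tested genes lay at -0.05, -0.08 and -0.03. The 3 comparisons share the age 2 libraries, so they are not independent of each other. Because the members were chosen with earlier results of these data known, the shares and medians are descriptive and do not test the list. Simulated counts for age 9 against age 2 (200 genes changed in each step, of 15684 and 15670) gave calls for 1.5% of genes changed 2-fold and 67% of genes changed 4-fold. In the data 2934 genes passed in this comparison, which makes the adjustment less strict than with 200 changed genes. The simulated shares are therefore not the sensitivity of the real fit.

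**Figure D1:**
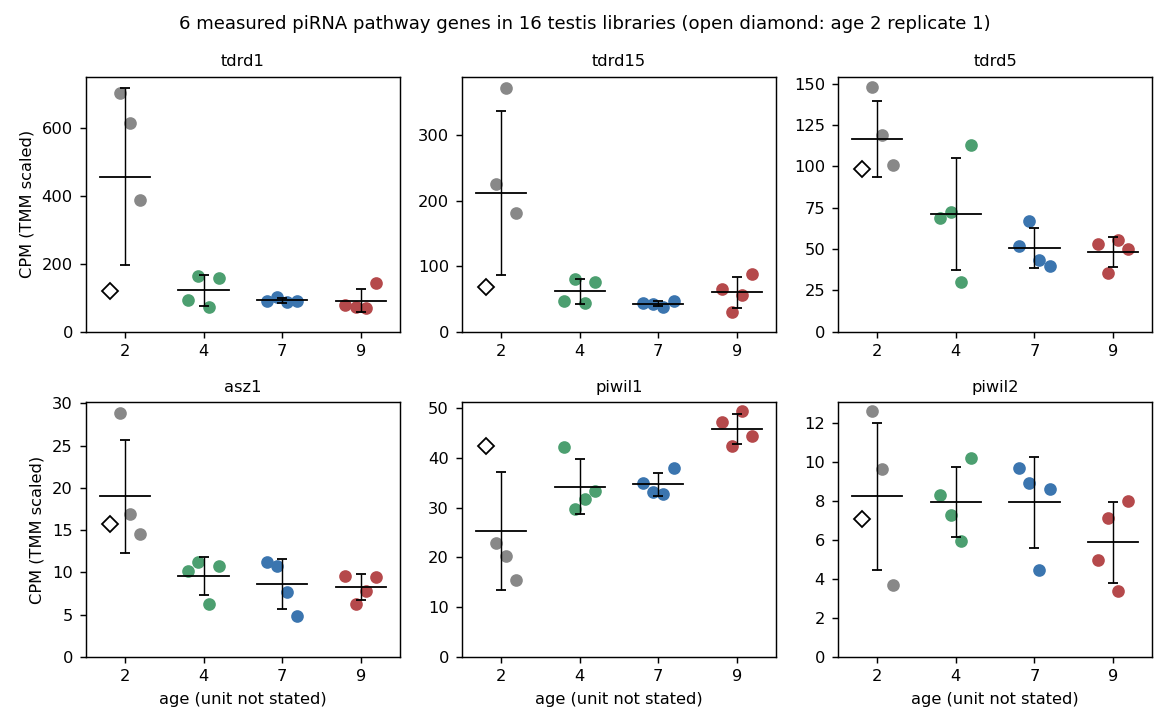
Level of each of the 6 measured piRNA pathway genes (CPM after TMM scaling, linear axis from 0) in every library by age, with a line for the mean and a bar for the SD (n = 4 fish). The open diamond is age 2 replicate 1, which lies with the older libraries for tdrd1, tdrd15 and piwil1, and with its own age for asz1.

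The Tudor gene tdrd1 had the largest falls against age 2 of the 6 members at ages 4 and 9. Its protein is a scaffold of germ granules that binds both PIWI proteins in zebrafish. It stood at 120.4, 703, 616 and 388 CPM in replicates 1 to 4 of age 2. At age 4 it stood at 92.3, 163, 72.2 and 157 CPM, at age 7 at 90.1, 103, 86.2 and 89.3 CPM, and at age 9 at 77.3, 73.0, 70.7 and 143 CPM. Replicates 2 to 4 of age 2 lay above all 12 older libraries, whereas age 2 replicate 1 lay within their range. Age 2 was split in this way by levels in these data, and no share of all genes with such a split is given. At age 7 all 4 fish lay below all 4 of age 2, while at ages 4 and 9 the groups overlapped. Of all tested genes, 8.37% were lower at age 7 with no overlap. The log2 fold change was -1.92 ± 0.42 (SE) at age 4, -2.31 ± 0.43 at age 7 and -2.33 ± 0.43 at age 9, with edgeR adjusted p = 0.0159, 0.00541 and 0.00473. Without age 2 replicate 1 it was -2.16 ± 0.31, -2.53 ± 0.31 and -2.59 ± 0.31. The call at age 4 was lost without age 2 replicate 3 (edgeR adjusted p = 0.0551) or age 4 replicate 3 (edgeR adjusted p = 0.0609), and with the 2 ages fitted alone (0.0978). The calls at ages 7 and 9 held without any 1 of their 8 libraries.

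The gene tdrd15, which encodes another protein with Tudor domains, had the level pattern closest to tdrd1 among the members. Its CPM values were 68.6, 226, 372 and 182 at age 2, then 46.2, 79.6, 43.2 and 76.2 at age 4. At age 7 they were 43.7, 41.4, 38.1 and 46.8, the narrowest spread of the 4 ages, and at age 9 they were 65.3, 29.3, 56.0 and 88.3. Here too replicates 2 to 4 of age 2 lay above every older library and age 2 replicate 1 lay among them. As for tdrd1, no share of all genes with such a split is given. The log2 fold change was -1.79 ± 0.41 at age 4, -2.32 ± 0.42 at age 7 and -1.83 ± 0.41 at age 9 (edgeR adjusted p = 0.0167, 0.00539 and 0.0102). Leaving out age 2 replicate 1 gave -2.01 ± 0.32, -2.52 ± 0.33 and -2.07 ± 0.32. At age 4 the call was lost without age 2 replicate 3 (edgeR adjusted p = 0.063), age 4 replicate 1 (0.0513) or age 4 replicate 3 (0.0618). Fitted with the 2 ages alone, the calls at ages 4 and 9 were lost (edgeR adjusted p = 0.0978 and 0.0572).

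The fall of tdrd5 was smaller, and at ages 7 and 9 it showed against all 4 age 2 fish. In mouse, TDRD5 is needed for the processing of piRNA precursors in meiotic germ cells and for spermatid formation. The gene stood at 98.1, 148, 119 and 101 CPM at age 2 and at 68.7, 72.4, 30.2 and 113 CPM at age 4. At age 7 the values were 51.7, 66.9, 43.5 and 39.7 CPM and at age 9 they were 53.0, 35.2, 55.5 and 49.8 CPM. Every fish of ages 7 and 9 lay below every fish of age 2, as was so for 8.37% and 7.93% of all tested genes. Age 4 overlapped age 2 through 1 fish, age 4 replicate 4, which lay above age 2 replicates 1 and 4. Age 2 replicate 1 thus lay within the range of the older fish (30.2 to 113 CPM). Log2 fold changes were -1.21 ± 0.31 at age 7 (edgeR adjusted p = 0.0131) and -1.27 ± 0.31 at age 9 (edgeR adjusted p = 0.0142). At age 4 the value was -0.71 ± 0.31 and did not pass (edgeR adjusted p = 0.102), but it passed at -1.01 ± 0.29 without age 4 replicate 4 (edgeR adjusted p = 0.0324). Without age 2 replicate 1 the values were -0.71 ± 0.32, -1.19 ± 0.32 and -1.29 ± 0.32 at ages 4, 7 and 9, close to those with it.

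The gene asz1 fell at every older age, and no older fish reached the level of any age 2 fish. Its protein, called GASZ in mouse, sits on the mitochondrial surface and stabilises the piRNA machinery there. It stood at 15.7, 28.9, 16.9 and 14.5 CPM at age 2, at 10.2, 11.2, 6.27 and 10.7 CPM at age 4, at 11.2, 10.8, 7.71 and 4.84 CPM at age 7 and at 9.57, 6.23, 7.82 and 9.47 CPM at age 9. Of all tested genes, 4.47%, 8.37% and 7.93% were lower with no overlap at ages 4, 7 and 9. The log2 fold changes of asz1 were -0.98 ± 0.32, -1.14 ± 0.32 and -1.20 ± 0.32 (edgeR adjusted p = 0.0419, 0.0182 and 0.0197). Without age 2 replicate 1, where asz1 was higher than in any older fish, they were -0.99 ± 0.33, -1.13 ± 0.33 and -1.23 ± 0.33. The call at age 4 was lost without any other of the 8 libraries of that comparison (edgeR adjusted p between 0.0537 and 0.155). At age 7 it was lost without age 2 replicate 2 (edgeR adjusted p = 0.0753) or age 7 replicate 4 (0.0626). At age 9 it was lost without age 2 replicate 2 (edgeR adjusted p = 0.0815), age 9 replicate 2 (0.0643) or age 9 replicate 3 (0.0579). With the 2 ages fitted alone all 3 asz1 calls were lost (edgeR adjusted p = 0.122, 0.0867 and 0.0511).

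The PIWI gene piwil1 (ziwi in zebrafish), whose protein takes up piRNAs and cuts their targets, went the other way. It stood at 42.5, 22.9, 20.3 and 15.4 CPM at age 2, at 42.3, 29.7, 31.7 and 33.3 CPM at age 4, at 34.9, 33.2, 32.7 and 38.0 CPM at age 7 and at 47.2, 42.5, 49.4 and 44.4 CPM at age 9. Replicates 2 to 4 of age 2 were the 3 lowest of all libraries, and age 2 replicate 1 was the fifth highest. For this split too no share of all genes is given. It rose by 0.86 ± 0.25 (log2, SE) at age 9 (edgeR adjusted p = 0.0293). At ages 4 and 7 the values were 0.44 ± 0.25 (edgeR adjusted p = 0.21) and 0.46 ± 0.25 (edgeR adjusted p = 0.179). Without age 2 replicate 1 the fold changes were 0.89 ± 0.19, 0.92 ± 0.19 and 1.28 ± 0.19 at ages 4, 7 and 9, and all 3 passed (edgeR adjusted p = 0.00141, 0.000981 and 0.000116). That library was set apart by its levels in these data. The fit without it called 3875, 4021 and 3602 of all genes higher, against 1065, 1830 and 1090 in the fit of all 16 libraries. The call at age 9 was lost without age 2 replicate 2 (edgeR adjusted p = 0.0845), age 2 replicate 3 (0.0917), age 2 replicate 4 (0.0998), age 9 replicate 1 (0.0586), age 9 replicate 2 (0.0548) or age 9 replicate 3 (0.0647), and with the 2 ages fitted alone (0.105). By limma voom with quality weights on all 16 libraries piwil1 passed at ages 4 and 7 as well, at 0.74 ± 0.18 and 0.77 ± 0.18 (limma adjusted p = 0.0034 and 0.00174). Of all genes, limma voom called 3656 and 3945 higher at ages 4 and 7. All 4 fish of age 9 lay above all 4 of each other age, though age 9 replicate 2 and age 2 replicate 1 both round to 42.5 CPM. Of all tested genes, 7.12%, 5.29% and 3.59% were higher at age 9 with no overlap against ages 2, 4 and 7. Against age 7 the difference was 0.40 ± 0.25 (edgeR adjusted p = 0.773) and against age 4 it was 0.42 ± 0.25 (edgeR adjusted p = 0.616), so that no older pair differed by the test.

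No change of piwil2 (zili in zebrafish), the second PIWI gene, passed. Its protein works with that of piwil1 in the cycle of target cutting that amplifies piRNAs. Its counted level was low, at 7.05, 12.6, 9.62 and 3.68 CPM at age 2, 8.33, 7.27, 5.93 and 10.2 CPM at age 4, 9.68, 8.91, 4.47 and 8.64 CPM at age 7 and 4.96, 7.15, 3.37 and 8.0 CPM at age 9. The ages overlapped in every pair. Log2 fold changes were -0.06 ± 0.38, -0.06 ± 0.38 and -0.49 ± 0.39 against age 2 (edgeR adjusted p = 0.924, 0.915 and 0.369). A p above the threshold does not show that the level stayed the same.

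**Figure D2:**
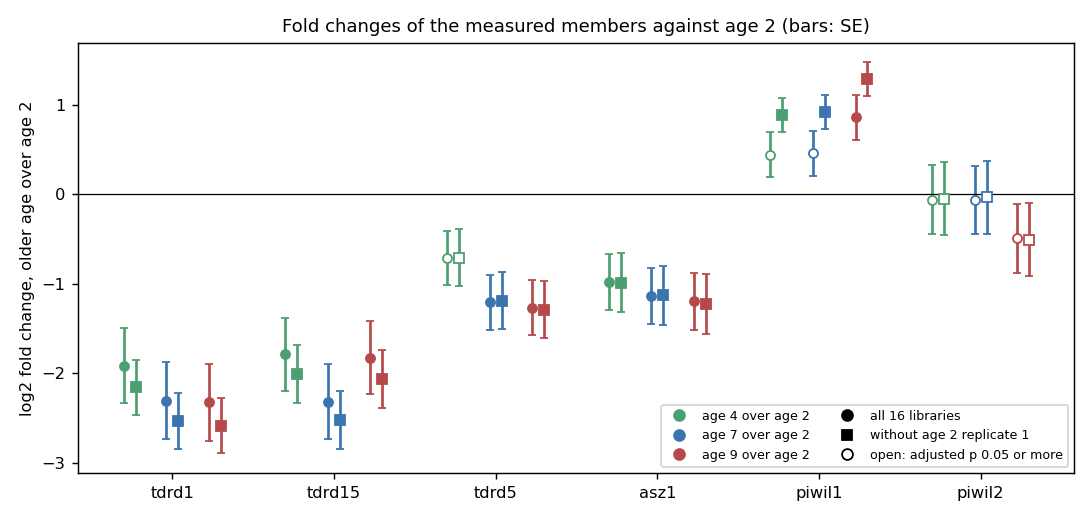
Log2 fold change of each measured member (older age over age 2, bars: SE) from the fit on all 16 libraries (circles) and without age 2 replicate 1 (squares), with filled symbols for an adjusted p under 0.05. The values of tdrd5, asz1 and piwil2 hardly moved without this library, those of tdrd1 and tdrd15 moved away from 0, and of these 2 fits piwil1 passed at all 3 ages in the one without it.

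The members differed in where age 2 replicate 1 lay. For tdrd1 and tdrd15 age 2 replicate 1 lay below the other 3 fish of its age by a wide margin (120.4 CPM against 388 to 703, and 68.6 against 182 to 372), whereas for asz1 it lay inside their range (15.7 against 14.5 to 28.9 CPM) and for tdrd5 just under it (98.1 against 101 to 148 CPM). For piwil1 it lay above them (42.5 against 15.4 to 22.9 CPM), and for piwil2 inside their range (7.05 against 3.68 to 12.6 CPM). As a measure of likeness, the root mean square difference of log2 CPM over the 16 libraries was taken after centring each gene on its own mean. It was 0.34 between tdrd1 and tdrd15 and 0.29 between tdrd5 and asz1, and between 0.62 and 0.66 across these pairs. Between piwil1 and tdrd1 it was 1.43, the largest of the 15 pairs. Within a library, tdrd1 counts were 30.7, 30.4 and 25.2 times those of piwil1 in replicates 2 to 4 of age 2, against 2.83 times in replicate 1. In the 12 older libraries the ratio ran from 1.43 to 5.48. Such a ratio of 2 genes in 1 library does not depend on library scaling, but its size depends on how much of each gene was counted. It was computed after the values were seen and not tested.

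The counts of tdrd1 made up 61.6%, 53.4% and 55.0% of all counts of the 8 members in age 2 replicates 2 to 4 (95% exact binomial intervals 60.5 to 62.6, 52.3 to 54.5 and 53.5 to 56.6, for counting error only). In age 2 replicate 1 the share was 34.2% (32.2 to 36.2), and in the older libraries it ran from 29.1% to 44.8%. Members with several models may be counted only in part, and ddx4 and tdrd9 were at or near 0. The share can thus be compared between libraries, but it is not the part of tdrd1 in the RNA of the pathway. The difference of piwil1 and piwil2 on the log2 CPM scale averaged 1.60 ± 0.79, 2.08 ± 0.31, 2.14 ± 0.45 and 2.97 ± 0.62 in the fish of ages 2, 4, 7 and 9 (SD, n = 4 each). It was larger than at age 2 by 0.48, 0.54 and 1.37, and none of the 3 passed (two-sided exact permutation p = 0.314, 0.257 and 0.0857, and 0.314, 0.314 and 0.257 after Benjamini-Hochberg adjustment over these 3 tests). With 4 fish against 4 the smallest exact p is 0.0286.

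For piwil1 the count tables hold 1 coding model (XM in RefSeq) and 1 model annotated as non-coding (XR), and most counts fell on the non-coding one. If fragments shared by both models are left out, which was not tested, these counts do not give the share of each RNA. The XR model stood at 34.5, 33.9, 40.2 and 34.8 CPM at age 9, against 37.5, 19, 15.9 and 13.7 CPM at age 2. The coding model stood at 12.7, 8.61, 9.20 and 9.63 CPM at age 9, against 4.97, 3.89, 4.37 and 1.67 CPM at age 2. All age 9 fish exceeded all age 2 fish in the coding model. Among all tested genes 7.12% were higher at age 9 than at age 2 with no overlap, and no such share is given for transcripts. In the coding model age 2 replicate 1 was the highest of its age, close to replicate 3. It lay between the mean CPM of ages 4 and 7 (4.4 and 5.74). In the XR model it stood far above the other fish of its age. In a fit of 17156 transcripts, of which 3014 (either direction) passed at age 9, the coding model rose by 1.42 ± 0.36 (log2, SE; edgeR adjusted p = 0.018), and by 1.61 ± 0.39 without age 2 replicate 1 (edgeR adjusted p = 0.00389). At ages 4 and 7 it was at 0.23 ± 0.37 and 0.62 ± 0.36 (edgeR adjusted p = 0.673 and 0.209). Without age 2 replicate 1 the coding model still did not pass at ages 4 and 7, at 0.46 ± 0.39 and 0.84 ± 0.39 (edgeR adjusted p = 0.356 and 0.0859). In that fit the XR model passed at both ages, at 0.93 ± 0.20 and 0.89 ± 0.20 (edgeR adjusted p = 0.00126 and 0.00148). At age 9 the XR model differed by 0.73 ± 0.26 (edgeR adjusted p = 0.0618), and by 1.17 ± 0.20 without age 2 replicate 1 (edgeR adjusted p = 0.000282). The coding model held 11.7%, 17%, 21.6% and 10.9% of piwil1 counts at age 2, and between 7.95% and 17.2% at age 4. At age 7 it held between 11.6% and 20.9%, and at age 9 it held 26.8%, 20.3%, 18.6% and 21.7%. The 95% exact intervals of single libraries are wide, for example 21.7 to 32.5 in age 9 replicate 1 and 5.34 to 19.1 in age 2 replicate 4, and the share itself was not tested.

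The difference between the 2 asz1 models was not tested, and a fall passed only in the model with more counts. That model had a log2 fold change of -1.14 ± 0.32 at age 4, -1.34 ± 0.33 at age 7 and -1.37 ± 0.33 at age 9 (edgeR adjusted p = 0.029, 0.0113 and 0.0135), and of -1.15 ± 0.34, -1.35 ± 0.34 and -1.42 ± 0.34 without age 2 replicate 1. Of 17156 transcripts, 3087, 4602 and 3014 passed at these ages, in either direction. No other single library was left out of the transcript fit, whereas calls of summed asz1 were lost in several such fits. The other asz1 model stood at 0.733 to 3.34 CPM over the 16 libraries, with -0.12 ± 0.49, -0.07 ± 0.49 and -0.24 ± 0.50 (edgeR adjusted p = 0.882, 0.924 and 0.758). Of the 3 piwil2 models with counts, 1 held a single count and the other 2 failed the test at every age. The model with more counts was at -0.84 ± 0.46 and the one with fewer at 0.72 ± 0.47 at age 9 (edgeR adjusted p = 0.198 and 0.279).

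**Figure D3:**
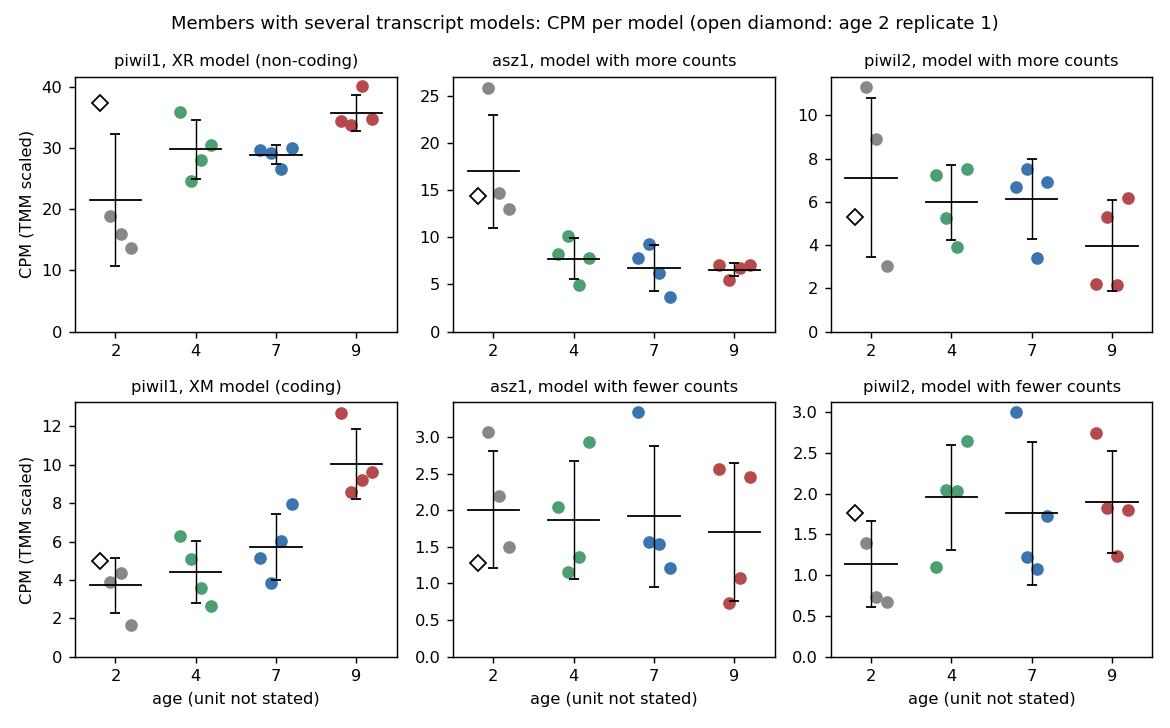
Level (CPM) of the transcript models that hold the counts of piwil1, asz1 and piwil2, by age, with the mean and SD (n = 4 fish) and age 2 replicate 1 as an open diamond. The coding piwil1 model lies between 8.61 and 12.7 CPM at age 9 and between 1.67 and 4.97 CPM at age 2, and the asz1 model with more counts is higher in every age 2 fish than in any older fish.

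Other genes of piRNA and small RNA pathways were taken from a list of 54 symbols, of which 36 are in the tables and 22 could be tested. All 15 genes in the tables with 1 model were tested, and all 14 that could not be tested have several models, among them the Tudor gene tdrd6 and the piRNA nuclease pld6. At age 4, 4 of the 22 were lower and 0 higher. At age 7, 6 were lower and 1 higher, and at age 9, 5 were lower and 2 higher. Of all tested genes 12.0%, 15.9% and 11.5% were lower, and 6.66%, 11.5% and 6.82% higher, at these ages. Without age 2 replicate 1 the split was near even, with 6 higher and 5 lower at age 4, 5 and 6 at age 7, and 6 and 6 at age 9. All genes called in that fit were 3875 higher and 3706 lower, 4021 and 3920, and 3602 and 3426. By limma voom the split of the 22 was 7 higher and 7 lower, 5 and 7, and 6 and 8. Over all genes limma voom called 3656 higher and 4219 lower, 3945 and 4652, and 3721 and 4095. In these 2 fits the split of the 22 was thus like that of all genes. The median log2 fold change of the 22 was -0.02, -0.18 and -0.27 at ages 4, 7 and 9. This list too was chosen with earlier results of these data known.

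The lower genes among them were rnf17, henmt1, stk31, exd1, tdrd12 and dnmt3ab. The Tudor and RING finger gene rnf17, whose mouse protein restrains piRNA amplification between PIWI proteins, stood between 80.5 and 237 CPM in the 12 older fish, against 236, 1013, 816 and 629 CPM at age 2. It fell by 2.02 ± 0.39 at age 4, 2.35 ± 0.39 at age 7 and 2.41 ± 0.39 at age 9 on the log2 scale (SE; edgeR adjusted p = 0.0128, 0.00479 and 0.00315). The gene of henmt1, the methyltransferase that protects the ends of piRNAs, stood between 5.83 and 13.1 CPM in the older fish, against 9.62, 35.9, 44.0 and 37.5 CPM at age 2. It fell by 1.72 ± 0.39, 1.81 ± 0.39 and 1.80 ± 0.39 (edgeR adjusted p = 0.0164, 0.00755 and 0.00864). The kinase-like Tudor gene stk31 fell by 1.42 ± 0.34, 1.85 ± 0.34 and 1.87 ± 0.34 (edgeR adjusted p = 0.0173, 0.00539 and 0.00433). In all 3 genes age 2 replicate 1 lay within the range of the older fish, as in tdrd1, and without it their fold changes were further from 0. They were then -2.23 ± 0.30, -2.54 ± 0.31 and -2.64 ± 0.31 for rnf17 at ages 4, 7 and 9. For henmt1 they were -1.94 ± 0.28, -2.02 ± 0.28 and -2.05 ± 0.28, and for stk31 -1.60 ± 0.27, -2.01 ± 0.28 and -2.07 ± 0.28. The age 4 calls were lost without age 4 replicate 3 for all 3 (edgeR adjusted p = 0.0542, 0.0618 and 0.0628 for rnf17, henmt1 and stk31). They were also lost without age 2 replicate 3 (0.0584 and 0.0627) or age 4 replicate 1 (0.0502 and 0.0541) for henmt1 and stk31, without age 2 replicate 4 for henmt1 (0.0507) and without age 2 replicate 2 for stk31 (0.0575). With the 2 ages fitted alone the age 4 calls of all 3 (edgeR adjusted p = 0.0978 each) and the age 9 call of henmt1 (0.0522) were lost.

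The proteins of exd1 and tdrd12 have been found in 1 complex in mouse germ cells, where they take part in the making of piRNAs from cut transcripts. The exonuclease-like gene exd1 fell by 1.91 ± 0.43 at age 7 and 1.76 ± 0.43 at age 9 on the log2 scale (edgeR adjusted p = 0.00865 and 0.014), and was at -2.03 ± 0.41 and -1.91 ± 0.41 without age 2 replicate 1. The Tudor helicase gene tdrd12 stood at 66.2, 40.1, 62.9 and 55.5 CPM at age 9, against 97.9, 133, 96.5 and 95.1 CPM at age 2. It fell by 0.99 ± 0.23 at age 7 and 0.91 ± 0.23 at age 9 (edgeR adjusted p = 0.00983 and 0.017). As in asz1, age 2 replicate 1 lay within the range of its own age. Unlike in asz1, it also lay within the range of the older fish (40.1 to 99.9 CPM). Without age 2 replicate 1 the values were -0.93 ± 0.24 and -0.90 ± 0.24. The age 9 call of tdrd12 was lost without age 2 replicate 2 (edgeR adjusted p = 0.0626) or age 9 replicate 2 (0.0579). The DNA methyltransferase gene dnmt3ab, from the family that acts with piRNAs on transposon DNA in mouse, fell by 1.30 ± 0.43 at age 4 and 1.34 ± 0.43 at age 7 (edgeR adjusted p = 0.0453 and 0.0309), and was at -1.54 ± 0.33 and -1.56 ± 0.33 without age 2 replicate 1. With the 2 ages fitted alone both calls were lost (edgeR adjusted p = 0.149 and 0.108). The counts of dnmt3ab come from 12 models. Its age 4 call was lost without any of age 2 replicates 2 to 4 or age 4 replicates 1 to 3, and its age 7 call without any of age 2 replicates 2 to 4 or age 7 replicates 1, 3 and 4 (edgeR adjusted p between 0.0693 and 0.137).

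The genes that rose were mov10a, ago2 and tdrd3. The helicase gene mov10a, a relative of mov10l1 that is known for restraining viruses and retroelements in other vertebrates, stood at 76.4, 66.2, 109 and 74.1 CPM at age 9, against 53.1, 35.9, 36.4 and 46.5 CPM at age 2. It rose by 0.92 ± 0.21 (log2, SE; edgeR adjusted p = 0.0108), all age 9 fish lay above all fish of the other ages, and the call held without any 1 of the 8 libraries. Higher at age 9 with no overlap were 7.12%, 5.29% and 3.59% of all tested genes against ages 2, 4 and 7. Without age 2 replicate 1 the value was 1.09 ± 0.21. The microRNA effector ago2 rose by 1.94 ± 0.57 at age 9 (edgeR adjusted p = 0.0287) at a mean of 1.99 CPM, against 0.512 CPM at age 2, which is near the level that 3 counts give. That call was lost without age 2 replicates 2 or 3 or age 9 replicates 1, 2 or 3, left out singly (edgeR adjusted p between 0.0516 and 0.0956), and the value was 2.12 ± 0.64 without age 2 replicate 1. The gene tdrd3, a Tudor gene also known outside the germline, rose by 0.88 ± 0.31 at age 7 (edgeR adjusted p = 0.0433). Its call was lost without any of age 2 replicates 2 to 4 or age 7 replicates 1, 2 and 4 (edgeR adjusted p between 0.0784 and 0.129) and with the 2 ages fitted alone (0.153), and its value was 1.39 ± 0.26 without age 2 replicate 1. The gene of mybl1, a transcription factor that turns on piRNA pathway genes in mouse meiosis, did not pass at any age, with 0.12 ± 0.29, -0.26 ± 0.30 and -0.53 ± 0.30 (edgeR adjusted p = 0.785, 0.528 and 0.209). It was highest of all in age 2 replicate 1, at 160.1 CPM, against 57.5 to 67.6 in the other 3 fish of that age.

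**Figure D4:**
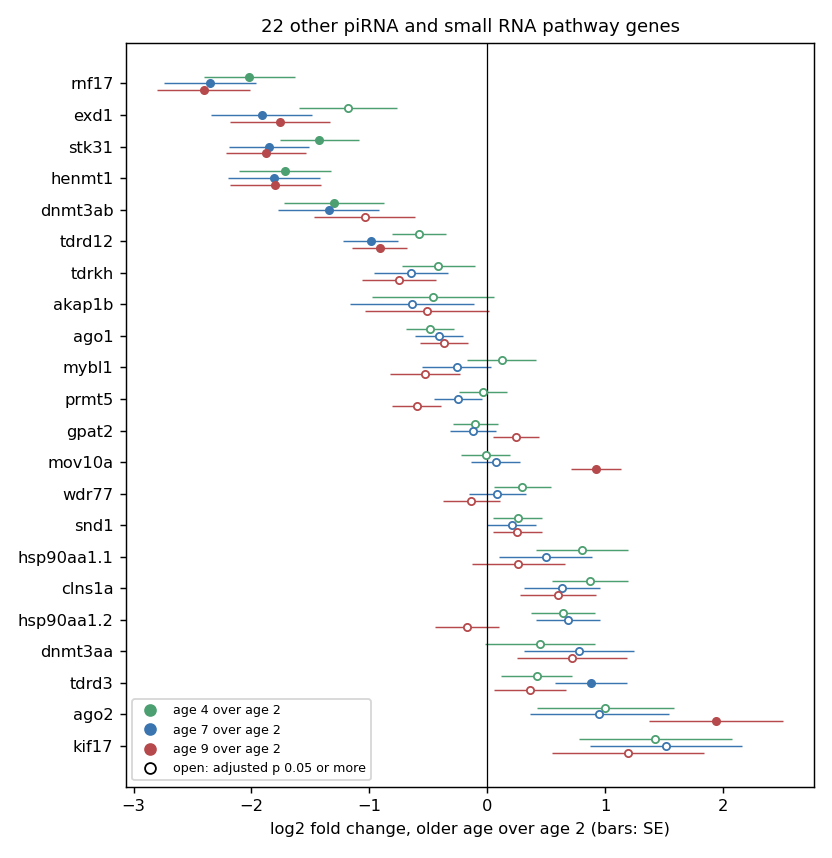
Log2 fold change (older age over age 2, bars: SE) of the 22 other tested pathway genes, ordered by their value at age 7, with filled symbols for an adjusted p under 0.05. The filled symbols on the left belong to rnf17, exd1, stk31, henmt1, dnmt3ab and tdrd12, and those on the right to mov10a, tdrd3 and ago2.

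Markers of other cells moved with some of these genes. Over the 17 listed spermatogonia and germ plasm genes in the tables the summed level was 386 CPM in age 2 replicate 1 and 675 to 835 CPM in the rest of age 2. It was 247 to 660.3 CPM at age 4, 366 to 542 CPM at age 7 and 327 to 443 CPM at age 9. Of the 11 that were tested, 4 were lower at each older age, and 0, 1 and 1 were higher at ages 4, 7 and 9. The calls of this and the following marker lists stand beside 12.0%, 15.9% and 11.5% of all tested genes called lower. The shares called higher were 6.66%, 11.5% and 6.82%. The spermatogonial stem cell regulator nanos2 stood between 0.342 and 9.47 CPM in the older fish, against 1.92 CPM in age 2 replicate 1 and 26.2 to 93.0 CPM in age 2 replicates 2 to 4. The spread of values over age 2 is like that of tdrd1, with replicate 1 low. The part of these cells in the falls was not tested.

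The sum of the meiotic genes and dmc1 were high in age 2 replicate 1, as was piwil1. The meiotic gene sycp3 was not, and lay there within the range of the rest of its age (1.89 to 3.75 CPM). The recombinase gene dmc1, which is made in early meiosis, stood between 58.4 and 119 CPM in the older fish, against 147 CPM in age 2 replicate 1 and 9.03 to 24.9 CPM in age 2 replicates 2 to 4. The 20 listed meiosis genes in the tables summed to 2713 CPM in age 2 replicate 1 and 716 to 1182 CPM in the rest of age 2. At age 4 the sum was 1428 to 2051 CPM, at age 7 1144 to 1803 CPM and at age 9 961 to 1387 CPM. Of the 15 tested, 1 was higher at each older age, and 2 were lower at age 9, which is not far from the shares of all tested genes. In all libraries 3 of the 20 were listed at 0. The mean of piwil1 was highest at age 9, whereas the range of the meiosis sum at age 9 was the lowest of the older ages. The part of meiotic cells in the change of piwil1 was not tested.

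Sertoli and oocyte markers were also checked. The 10 listed Sertoli cell genes summed to 584 to 1864 CPM in the older fish, against 461 CPM in age 2 replicate 1 and 2804 to 7782 CPM in age 2 replicates 2 to 4. Most of that sum in age 2 replicates 2 to 4 was gsdf. The Sertoli hormone gene amh averaged 139 ± 84.0, 128 ± 107, 125 ± 76.1 and 139.7 ± 76.2 CPM at ages 2, 4, 7 and 9 (SD, n = 4 fish each) and did not pass (edgeR adjusted p = 0.908, 0.868 and 0.993). Of 7 tested Sertoli genes, 2, 2 and 1 were lower at ages 4, 7 and 9. The oocyte list matters because piRNA genes are also active in the ovary of fish. Its 10 genes in the tables summed to 163 to 224 CPM at age 2, 33.4 to 447 CPM at age 4, 31.6 to 102 CPM at age 7 and up to 75.3 CPM at age 9. The oocyte growth factor gdf9 stood between 2.02 and 15.6 CPM in the older fish and between 6.41 and 12.4 CPM at age 2, with its highest value in age 4 replicate 2, and figla was above 0 in every library. That fish also had the highest older levels of tdrd1 (163 CPM) and rnf17 (237 CPM). The highest older levels of tdrd15 (88.3 CPM), tdrd5 (113 CPM), piwil1 (49.4 CPM) and piwil2 (10.2 CPM) lay in other fish. For asz1 it rounds to 11.2 CPM both in that fish and in age 7 replicate 1. Of 8 tested oocyte genes, 0 passed at ages 4 and 7 and 2 were lower at age 9. Their part in the falls was not tested. The sperm gene ropn1l, with 4 models, is listed at 0 in all libraries, and the meiotic sycp3 was between 1.53 and 5.01 CPM throughout.

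Macrophage genes had the highest share of calls among the marker lists with more than 1 tested gene. Of 8 tested, 5, 4 and 7 were higher at ages 4, 7 and 9, and 0 were lower. The 11 listed macrophage genes in the tables summed to 61.4 to 84.2 CPM at age 2, 114 to 295 CPM at age 4, 123 to 227 CPM at age 7 and 221 to 456 CPM at age 9. Age 2 replicate 1, at 69.7 CPM, lay within the range of its own age here. Among the tested pathway genes it did so for asz1, tdrd12, piwil2, gpat2, wdr77 and ago2. For tdrd5, piwil1 and mov10a it lay outside the range of the rest of its age. The part of macrophages in the falls of asz1, tdrd5 and tdrd12 and in the rises of piwil1 and mov10a was not tested. Of 8 tested Leydig cell genes 1, 2 and 2 were higher and 0 lower at the 3 ages, with sums of 321 to 2875 CPM in the older fish and 546 to 1029.9 CPM at age 2. Of 6 tested smooth muscle genes 0, 1 and 3 were higher and 1, 0 and 0 lower, with sums of 2304 to 10745 CPM in the older fish and 1600.5 to 4696 CPM at age 2. Of 21 tested spermatid and sperm tail genes 4, 7 and 3 were higher and 0 lower, beside 6.66%, 11.5% and 6.82% of all tested genes called higher. The 5 erythrocyte genes in the tables summed to 153 to 252 CPM in the older fish and 139 to 215 CPM at age 2, and the 1 tested did not pass.

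Nuclear ribosomal RNA took between 5.69% and 16.1% of assigned fragments at the older ages and between 14.8% and 28.3% at age 2. With these genes and the mitochondrial ones left out before scaling, asz1 at age 4 was at -0.95 ± 0.32 and no longer passed (edgeR adjusted p = 0.0509), and no other call of a member against age 2 changed.

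**Figure D5:**
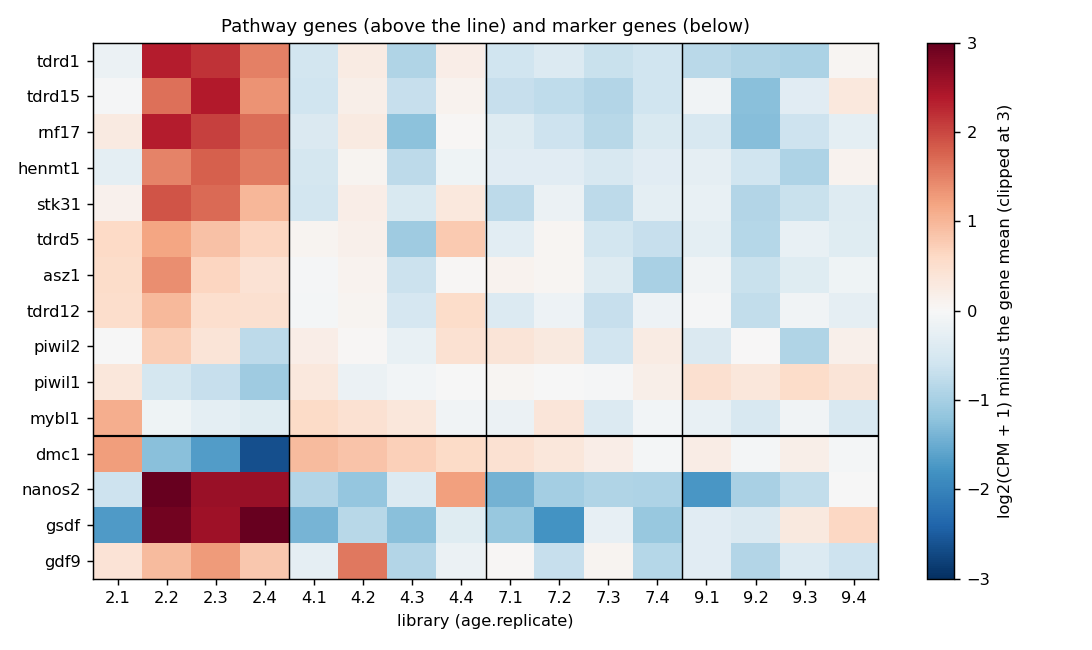
Log2(CPM + 1) of pathway genes (above the line) and of marker genes of other cells (below it), centred on each gene's mean, in the 16 libraries in order of age and replicate. Age 2 replicates 2 to 4 are high for tdrd1, tdrd15, rnf17, henmt1, stk31, nanos2 and gsdf and low for piwil1 and dmc1, while age 2 replicate 1 lies near the other fish of its age for tdrd5, asz1 and tdrd12.

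Among the older ages no member passed edgeR's test in any of the 3 comparisons, and neither did any of the 22 other pathway genes. At an unadjusted p under 0.05, 0 of the 6 members stood out in each of these comparisons, and 0, 4 and 2 of the 22 others did at age 7 against age 4, age 9 against age 4 and age 9 against age 7. By DESeq2, 0 members passed, and 1 other gene, mov10a, passed at age 9 against ages 4 and 7. In these comparisons edgeR called 0.0125%, 0% and 0% of all tested genes. Means at ages 7 and 9 were close for tdrd1 (92.1 ± 7.29 and 91.1 ± 35.0 CPM), tdrd5 (50.5 ± 12.1 and 48.4 ± 9.09 CPM) and asz1 (8.64 ± 2.98 and 8.27 ± 1.58 CPM, SD, n = 4 fish each). The order of the means was thus age 2 above age 4 above ages 7 and 9 for these 3 genes, and no 2 older ages differed by the test.

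For each member the 3 tested genes with the most similar pattern were sought among 11046 genes with a symbol and a mean of at least 1 CPM, by the root mean square difference described above over the 16 libraries. For tdrd1 they were sall1b (0.23), rnf17 (0.25) and prkd1 (0.26), against a median of 1.11 over all candidates. For tdrd15 they were ccr9b (0.29), pcyt1ba (0.30) and rprma (0.32), and for tdrd5 ptprdb (0.23), fam117aa (0.25) and slc6a16b (0.25). The gene fam117aa was also first for asz1 (0.23), before ddx19a (0.27) and hacd1 (0.28). For piwil1 they were alg6 (0.15), slc9a1a (0.21) and sec63 (0.21), against a median of 0.68, and for piwil2 avl9 (0.33), clpp (0.34) and cacna2d3a (0.35), against a median of 0.74. Of these genes, rnf17 alone is on the pathway list.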

How the data were processed

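Per the labels' protocols, NEBNext Ultra II libraries were built from testis total RNA (Zymo Quick-RNA Miniprep Plus). Per the submitters' processing notes, HTSeq 0.11.1, STAR 2.7.5, edgeR 4.4.2, Trimmomatic 0.39, FastQC 0.11.9 and MultiQC 1.10.1 were used. What each did, strandedness and genome build: not given in the sources used here. No coordinates are therefore printed. The authors deposited whole-number counts per transcript (50072), not normalized, 1 table per library. Between 65.2% and 76.2% of fragments stand in closing lines that name no gene and were left out. Counts were summed per deposited symbol (26356, of which 25500 match the RefSeq table of Billie_1.0). Genes that overlap or have close copies are less certain.

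Genes were kept by filterByExpr (minimum count 10, total 15), scaled by TMM (factors 0.773 to 1.13) and tested with edgeR 4.0.16 (quasi-likelihood, robust, R 4.3.3) by age over all 16 libraries, two-sided, with Benjamini-Hochberg adjustment. SEs were derived from each fold change and its F statistic. The labels call the replicates biological, and the 24 pairs within an age were no duplicates (chi-square per degree of freedom 10.1 to 118.2). The procedure was tested on simulated counts. Replicate numbers were not used as pairs in the main fit. Of 24 same-number pairs, 9 correlated above 0.1 (-0.22 to 0.41). Whether libraries of the same number share a batch was not tested. Alternatives used DESeq2 1.42.0 and limma 3.58.1. Summaries used python 3.11.15.

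The members and lists were chosen with earlier results of these data known. All members are named. Of the other pathway genes up to 5 per direction and comparison with the smallest p are named, plus tdrd6, pld6 and mybl1, named after their values were seen. Nearest genes exclude LOC symbols. Marker genes zp3 and others not in the tables were not analysed here. The planned ratio of tdrd1 to ddx4 was not formed because ddx4 held 6 counts.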

Additional observations from a re-analysis of the deposited data

Results flagged for a closer look

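In 7 of the 60 groups of 4 fish examined for 15 genes, 1 fish lay far from the other 3, by the gap to its neighbour as a share of the group's range. Chance gives about 1 such group in 20, and the genes share libraries. For tdrd1 at age 9 it was replicate 4 (143 CPM, the others 70.7 to 77.3, share 0.909). For asz1 and tdrd12 at age 2 it was replicate 2 in both (28.9 CPM, the others 14.5 to 16.9, share 0.836, and 133 CPM, the others 95.1 to 97.9, share 0.927). For tdrd3 at age 2 it was replicate 1 (92.7 CPM, the others 37.7 to 41, share 0.941). For exd1 at age 9 it was replicate 2 (2.93 CPM, the others 8.13 to 8.38, share 0.954). For dnmt3ab and henmt1 at age 7 they were replicate 2 (16.2 CPM, the others 7.84 to 9.15, share 0.844) and replicate 3 (8.33 CPM, the others 9.26 to 9.34, share 0.917).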

How the results depend on the processing

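Of 135 fold changes of members against age 2 under other settings, 120 kept direction and side of the threshold, 9 lost the call, 3 gained it and 3 changed sign. With 1 library left out, 111 of 144 were kept, 23 lost, 3 gained and 7 changed sign. For the named other pathway genes, 10 of 126 calls were lost under other settings and 34 of 144 with 1 library left out. The cause of these changes was not tested. By DESeq2, 1 other pathway gene passed at age 9 against age 4 and 1 against age 7, and all genes called were 14, 111 and 75 for age 7 against age 4, age 9 against age 4 and age 9 against age 7. By limma voom with quality weights, 5 members passed at age 4 (1 higher, 4 lower), and 14, 12 and 14 other pathway genes at ages 4, 7 and 9, with 2 at age 9 against age 4 and 2 against age 7. It called 7875 genes (3656 higher, 4219 lower), 8597 (3945, 4652) and 7816 (3721, 4095) against age 2, beside 2979 (1065, 1914), 4368 (1830, 2538) and 2934 (1090, 1844) by edgeR, and 0, 87 and 237 between older ages. Fitting the 2 ages alone gave 0 members, 0 other pathway genes and 0 genes in all at age 4, 795 genes at age 7, and 2 members and 987 genes at age 9, with 8 and 6 genes at age 9 against ages 4 and 7. Keeping only the main fit's calls of genes with 1 transcript (chosen after seeing the data) left 3 members at age 9. They are tdrd1, tdrd5 and tdrd15, the only members with 1 transcript, and nothing was refitted. This count is therefore no separate check. With no filter on low counts, asz1 at age 4 was at -0.90 (edgeR adjusted p = 0.082), and 0 genes passed at age 7 against age 4. In that setting the calls of tdrd3 at age 7 (0.94, edgeR adjusted p = 0.051) and dnmt3ab at age 4 (-1.20, edgeR adjusted p = 0.0691) were lost too.

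With the replicate number as a block, 3, 4 and 5 members and 3199, 4439 and 2790 genes (1430, 2119 and 1231 higher) passed against age 2 and 0 genes at age 7 against age 4. Of the named calls only dnmt3ab at age 4 was lost (-1.25, edgeR adjusted p = 0.0586). Of the 16 libraries 7 were closest to their own number.

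Leaving out 1 library gave 0 to 4 members at age 4 and 3 to 5 at ages 7 and 9, and 0 to 11, 5 to 11 and 5 to 12 other pathway genes. All genes called ranged from 1 (without age 4 replicate 3) to 7581 at age 4, 1945 to 7941 at age 7 and 1157 to 7028 at age 9, with the highest always without age 2 replicate 1 (3875 higher and 3706 lower, 4021 and 3920, 3602 and 3426). Between older ages they ranged from 0 to 2, 0 to 8 and 0 to 1. The piwil1 to piwil2 difference ranged from 0.2266 to 0.7917, 0.2857 to 0.8508 and 1.1050 to 1.6785.

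Sign changes were seen only in fold changes that never passed. For piwil2 they were 0.0288 at age 4 and 0.0380 at age 7 with no filter and 0.0058 at age 7 with 2 ages alone, and at age 7 against age 4 0.0231 (DESeq2 size factors), 0.0092 (no filter), 0.0215 (DESeq2), 0.1347 (voom), 0.0074 (without rRNA and mitochondrial genes) and 0.0036 (2 ages alone). By voom, tdrd15 at age 9 against age 4 was 0.0002, and tdrd5 and asz1 at age 9 against age 7 were 0.0057 and 0.0236. Without rRNA and mitochondrial genes tdrd1 at age 9 against age 7 was 0.0005. With 1 library left out, piwil2 ranged from -0.2644 to 0.2220 at age 4, -0.2510 to 0.2205 at age 7 and -0.1006 to 0.2113 at age 7 against age 4. For age 7 against age 4, asz1 ranged from -0.2943 to 0.0584 and piwil1 from -0.0333 to 0.1549. For age 9 against age 7, asz1 ranged from -0.2698 to 0.0758, tdrd1 from -0.3240 to 0.0858 and tdrd5 from -0.1725 to 0.0813, and for age 9 against age 4 tdrd15 from -0.2852 to 0.1850.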
